A study of Homo sapiens with 8 samples.

Results

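The genes described here are 10 parts of the transcriptional machinery that reads cyclic AMP: the CREB factors CREB1, CREM and ATF1, the CRTC coactivators CRTC1, CRTC2 and CRTC3, the salt-inducible kinases SIK1, SIK2 and SIK3, and PPARGC1A. They were chosen by symbol as the rows of the deposited count table that carry these names, which gave 10 of 58870 rows. All 10 passed the filter on low counts and were among the 14785 genes tested. RNA was sequenced from CFPAC-1, an established line of human pancreatic ductal cancer cells, in 4 libraries with an empty vector and 4 with an ADRA2A transgene. Both groups were grown for 72 hours in IMDM with 10% serum and 1% penicillin-streptomycin, and no drug or adrenergic agonist is named for either. The labels give neither the promoter of the transgene, nor whether the cells were a pool or 1 clone, nor whether libraries of a group were separate cultures, so p-values measure the spread between these libraries, which may be technical.

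Cyclic AMP activates protein kinase A, which phosphorylates CREB factors bound to the cyclic AMP response element (CRE) and so recruits the coactivators CBP and p300. The CRTC proteins are a second input to the same promoters: salt-inducible kinases phosphorylate them, 14-3-3 proteins then hold them in the cytoplasm, and protein kinase A inhibits those kinases while calcineurin removes the phosphates. PPARGC1A, SIK1 and an internal promoter of CREM are textbook CREB targets, and the alpha-2A adrenergic receptor that ADRA2A encodes lowers cyclic AMP through Gi. Most of this control acts on the proteins, whereas the values here are transcript abundances.

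ADRA2A itself had 0 counts in all 4 empty-vector libraries and 112 to 172 counts in the ADRA2A libraries. Library totals ranged from 14427040 to 17528910 estimated counts. The ductal epithelial list (8 of 9 genes tested) summed to between 12041 and 13093 counts-per-million (CPM) in every library, with CFTR as the gene that did not pass the filter. All 5 endocrine markers were at 0 in every library and the 5 acinar markers summed to at most 0.271 CPM. The fibroblast list (2 of 6 genes tested) went from 77.9 to 82.3 CPM in the empty-vector libraries to 23.8 to 26.2 CPM with ADRA2A, the leukocyte list from 89.9 to 96.2 to 110 to 121 CPM, and the endothelial list from 2.05 to 2.71 to 2.64 to 3.35 CPM. CD3E of the leukocyte list and CLDN5 of the endothelial list were at 0 in every library. The part of these differences in the results was not tested.

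Exact matches to the CRE were unevenly spread over those promoter windows of the members that were searched. RefSeq (GRCh38.p14) start sites were matched for 9 of the 10 members, all but CRTC2, with 18 windows of the 250 bases before a start. The searches were for exact matches to the full palindromic CRE, TGACGTCA, and to its core, TGACG, on either strand. A full CRE also holds a core on each strand, and sites with other letters were not counted. The full CRE stood in a window of 1 of the 9 members, CREM, against 2.03% of the 27305 genes with a window. The core stood in windows of 6 members, CREM, CRTC3, PPARGC1A, SIK1, SIK2 and SIK3, against 24.9% of those genes. CREM has more windows than any other member, so it had more chances to hold a match. The members also had more windows per gene, 18 for 9 genes against 35116 for 27305, which can raise their shares. The extra windows were those of CREM, ATF1 and PPARGC1A. CREB1, CRTC1, CRTC3, SIK1, SIK2 and SIK3 had a single window each. Over all windows, 1.65% held the full CRE and 21.2% the core. The windows below are the CREM window with the full CRE and those of the kinases and of PPARGC1A, in lower case with matches in capitals.

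CREM internal start, chr10:35195652-35195901, plus strand: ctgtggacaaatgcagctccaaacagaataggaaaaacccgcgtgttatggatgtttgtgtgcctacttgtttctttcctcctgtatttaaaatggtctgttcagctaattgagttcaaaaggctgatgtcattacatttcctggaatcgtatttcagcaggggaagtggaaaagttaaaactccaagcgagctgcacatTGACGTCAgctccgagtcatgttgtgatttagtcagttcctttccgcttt
SIK1, chr21:43427132-43427381, minus strand: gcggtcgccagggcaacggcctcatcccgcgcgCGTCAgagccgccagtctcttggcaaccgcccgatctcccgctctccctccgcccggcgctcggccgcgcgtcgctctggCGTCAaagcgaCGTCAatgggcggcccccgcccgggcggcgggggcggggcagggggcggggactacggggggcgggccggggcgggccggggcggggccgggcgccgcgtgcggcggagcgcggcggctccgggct
SIK2, chr11:111602199-111602448, plus strand: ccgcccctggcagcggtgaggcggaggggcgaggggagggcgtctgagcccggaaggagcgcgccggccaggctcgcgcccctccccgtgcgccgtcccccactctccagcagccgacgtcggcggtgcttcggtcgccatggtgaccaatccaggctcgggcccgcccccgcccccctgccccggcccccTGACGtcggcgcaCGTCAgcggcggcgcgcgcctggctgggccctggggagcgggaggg
SIK3, chr11:117098429-117098678, minus strand: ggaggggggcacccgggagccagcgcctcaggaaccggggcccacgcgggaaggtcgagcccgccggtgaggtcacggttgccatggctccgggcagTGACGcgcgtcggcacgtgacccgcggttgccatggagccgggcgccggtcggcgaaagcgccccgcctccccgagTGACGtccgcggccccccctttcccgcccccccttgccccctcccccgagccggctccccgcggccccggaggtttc
PPARGC1A upstream start, chr4:24472906-24473155, minus strand: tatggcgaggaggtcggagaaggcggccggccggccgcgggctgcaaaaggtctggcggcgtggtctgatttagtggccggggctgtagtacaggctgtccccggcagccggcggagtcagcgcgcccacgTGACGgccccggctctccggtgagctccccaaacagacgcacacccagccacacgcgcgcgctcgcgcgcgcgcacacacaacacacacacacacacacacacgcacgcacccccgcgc
PPARGC1A internal start, chr4:23881102-23881351, minus strand: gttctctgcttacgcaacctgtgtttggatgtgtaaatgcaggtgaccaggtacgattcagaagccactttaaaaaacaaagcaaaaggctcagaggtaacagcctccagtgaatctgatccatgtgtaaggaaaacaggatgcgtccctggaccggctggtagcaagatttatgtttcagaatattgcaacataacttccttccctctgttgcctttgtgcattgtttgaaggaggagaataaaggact

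The CRE of CREM lay before an internal start, with its last base 43 bases upstream, and none of the other CREM windows held the full motif. The window chr10:35126977-35127226, near the beginning of the gene, held 2 cores, ending 174 and 64 bases before its start. An internal CREM promoter is known to give rise to ICER, a short repressor. A count per gene does not separate ICER from full-length CREM. Other CREM windows also lie inside the gene, and which start gives ICER was not examined. SIK1 had 3 cores, ending 213, 133 and 122 bases before its start. SIK2 had 2, ending 55 and 42 bases before its start, and SIK3 had 2, ending 149 and 73 bases before it. CRTC3 had 1, ending 177 bases before its start. PPARGC1A had 1 core before its upstream start, ending 115 bases upstream. That start lies outside the gene's span in GENCODE. The window of the other listed start, which lies inside that span, held none. No window lay at the 5′ end of that span, position 23904089, so PPARGC1A promoters outside these windows were not searched. A match is a description of these letters and not of binding, and the counts do not tell which start a transcript used.

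The members differed widely in level. Per kilobase of the canonical transcript in GENCODE release 44, ATF1 was highest in the empty-vector cells, at 17.1 ± 0.768 CPM per kb (SD, n = 4), and CRTC2 followed at 14 ± 1.31. CREB1 (7.06 ± 0.192), the summed SIK1 rows described further on (7.04 ± 0.327), SIK3 (6.27 ± 0.0724), SIK2 (5.37 ± 0.139), CRTC3 (4.81 ± 0.369) and CREM (3.99 ± 0.360) formed a middle group. CRTC1 stood at 2.17 ± 0.105 CPM per kb and PPARGC1A was lowest at 0.457 ± 0.0509. Among neighbours in this order, the libraries of CREB1 and the SIK1 sum overlapped, as did those of SIK2 and CRTC3, and no other neighbouring pair did. The order depends on the length used: with the merged exons of all transcripts the SIK1 sum passed CREB1, SIK2 passed SIK3 and CRTC1 passed CREM. Among the CRTC coactivators, CRTC2 was the most abundant transcript and CRTC1, which is best known from neurons, the least; with merged exons the libraries of CRTC1 and CRTC3 overlapped.

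**Figure D1:**
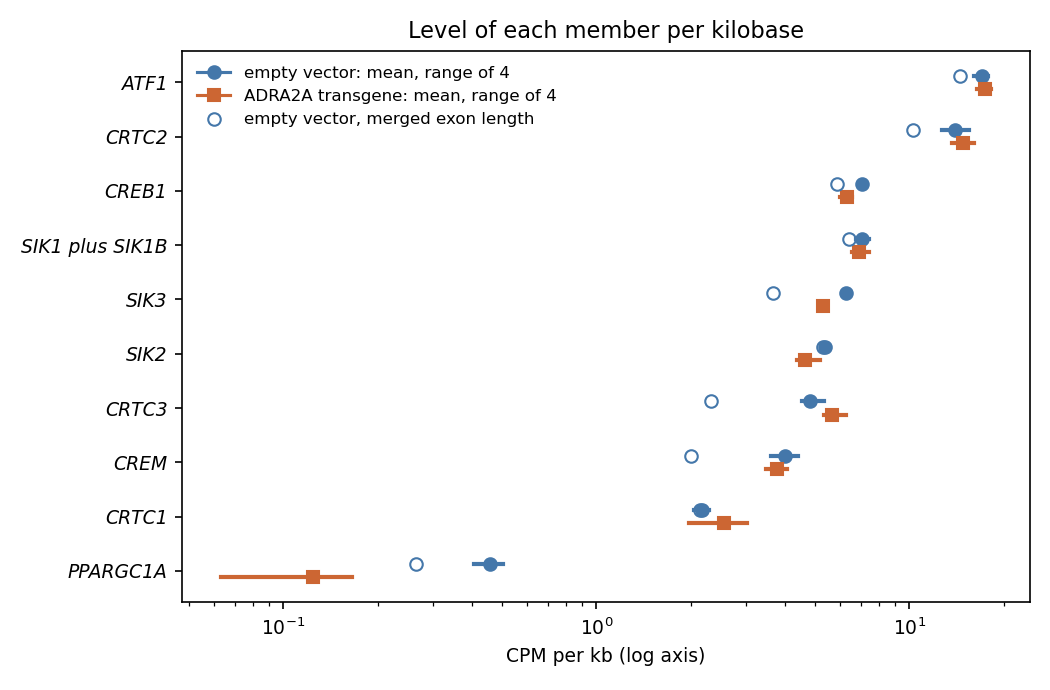
Level of each member in CPM per kilobase of canonical transcript, on a log axis, as the mean and range of 4 libraries per group; open circles give the empty-vector mean with merged exon length. ATF1 and CRTC2 lie highest and PPARGC1A lowest in both groups, and PPARGC1A has the groups farthest apart on this axis.

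With ADRA2A, 5 of the 10 members passed the edgeR quasi-likelihood test at a Benjamini-Hochberg threshold of 0.05 across the table: CREB1, SIK2, SIK3 and PPARGC1A fell and CRTC3 rose. The same test called 42.7% of all tested genes, 21.6% higher and 21.1% lower, so a share of 5 in 10 lies near the background. The 2 groups stood fully apart in 4 members, CREB1, SIK2, SIK3 and PPARGC1A, against 39.2% of all tested genes. The median log2 fold change of the members was -0.03, against 0.00 for all tested genes, and their median absolute log2 fold change was 0.22 against 0.18. In bulk RNA, fewer cells that express a gene and less RNA per cell cannot be told apart. The change in PPARGC1A exceeded 1 on the log2 scale, which 4.66% of all tested genes passed together with the test, and those of the other 9 members were under 0.4.

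**Figure D2:**
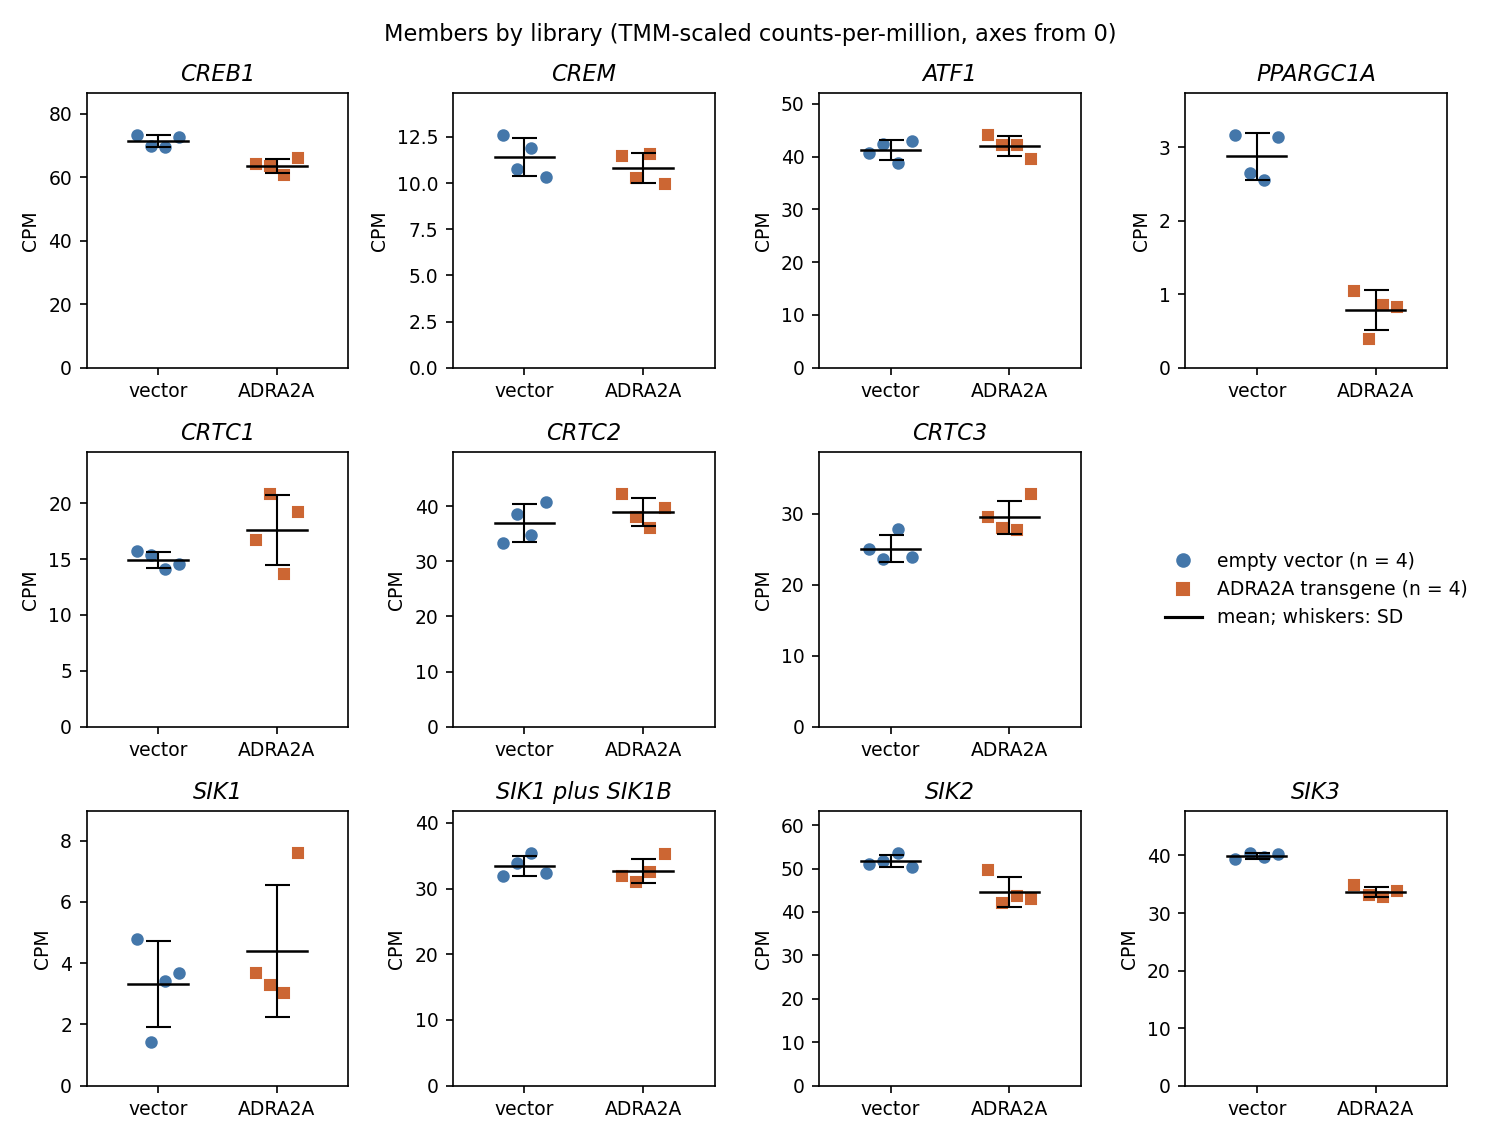
TMM-scaled CPM of each member in every library, with axes that start at 0, bars for the mean and whiskers for the SD of 4 libraries. The groups are apart for CREB1, SIK2, SIK3 and PPARGC1A, and 1 ADRA2A library stands alone at 7.59 CPM for the SIK1 row.

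Of the CREB factors, CREB1 fell by a small amount, and ATF1 and CREM were not called. CREB1 (ENSG00000118260.15; GRCh38 chromosome 2, 207529737 to 207605988, plus strand), the founding member of the family, had 73.2, 69.8, 69.5 and 72.8 CPM in empty-vector replicates 1 to 4 and 64.1, 63.6, 60.7 and 66 CPM in the ADRA2A replicates. Every ADRA2A library lay below every empty-vector library. CREB1 fell by 10.9% (edgeR adjusted p = 0.00517), which is -0.17 ± 0.04 (SE) on the log2 scale with a 95% interval from -0.26 to -0.07. The replicates of CREB1 were close, with an SD of 1.94 CPM around 71.3 in the empty-vector cells and 2.20 around 63.6 with ADRA2A.

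ATF1 (ENSG00000123268.9; chromosome 12, 50763710 to 50821162, plus strand), a close relative that pairs with CREB1, had 40.6, 42.4, 38.8 and 42.9 CPM with the empty vector and 44, 42.1, 42.3 and 39.5 CPM with ADRA2A. These values interleave, and no difference was called (log2 fold change 0.03, 95% interval -0.08 to 0.14; edgeR adjusted p = 0.705). CREM (ENSG00000095794.19; chromosome 10, 35126791 to 35212958, plus strand) encodes activators and repressors from 1 gene, with 48 transcripts annotated in GENCODE. It had 12.6, 10.8, 11.9 and 10.3 CPM with the empty vector and 11.5, 10.3, 11.6 and 9.93 CPM with ADRA2A. The groups of CREM overlapped almost fully (log2 fold change -0.08, 95% interval -0.28 to 0.13; edgeR adjusted p = 0.549). That interval leaves room for a change of about the size of that in CREB1.

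Whether CREB1 changed differently from its relatives was examined through the log2 ratio of 2 members within each library, with an exact two-sided permutation test over the 8 libraries, whose smallest possible p is 0.0286. Over the 3 families 9 ratios were computed. The log2 ratio of CREB1 to ATF1 went from 0.79 ± 0.06 to 0.60 ± 0.10 (SD, n = 4; exact p = 0.0571, adjusted over the 9 ratios 0.257), and the groups overlapped. The ratio of CREB1 to CREM differed by -0.09 (exact p = 0.4), and that of CREM to ATF1 by -0.10 (exact p = 0.371). CREB1 alone of the 3 passed the test across genes, but whether it moved apart from CREM or ATF1 is not settled by these ratios.

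The CRTC coactivators all had positive fitted changes, of which 1 passed the test. CRTC3 (ENSG00000140577.16; chromosome 15, 90529923 to 90645345, plus strand) had 25.1, 23.6, 27.8 and 23.9 CPM with the empty vector and 29.6, 28, 27.7 and 32.8 CPM with ADRA2A. The lowest ADRA2A library lay just under the highest empty-vector library, so the groups touched. CRTC3 rose by 17.4% (edgeR adjusted p = 0.0137), or 0.23 ± 0.07 (SE) on the log2 scale with a 95% interval from 0.08 to 0.38. This call rested on ADRA2A replicate 4, without which the log2 fold change was 0.18 and the adjusted p 0.0612.

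CRTC1 (ENSG00000105662.16; chromosome 19, 18683678 to 18782333, plus strand) had 15.7, 15.3, 14.1 and 14.5 CPM with the empty vector and 16.7, 20.8, 13.6 and 19.2 CPM with ADRA2A. Its ADRA2A libraries were the more scattered, with an SD of 3.12 CPM against 0.723 in the empty-vector libraries, and 1 of them was the lowest of all 8. The fitted log2 fold change of 0.23 was as large as that of CRTC3 but did not pass (SE 0.11; 95% interval 0.01 to 0.45; edgeR adjusted p = 0.0868, unadjusted 0.0418). Without ADRA2A replicate 3 it was 0.34 with an adjusted p of 0.00625, and with no filter on low counts the adjusted p was 0.0434. CRTC2 (ENSG00000160741.17; chromosome 1, 153947669 to 153958615, minus strand), the coactivator known for glucose production in liver, had 33.3, 38.6, 34.8 and 40.8 CPM with the empty vector and 42.1, 38.1, 36.0 and 39.7 CPM with ADRA2A. The groups of CRTC2 overlapped (log2 fold change 0.08, 95% interval -0.06 to 0.22; edgeR adjusted p = 0.369). The groups overlapped in all 3 ratios between CRTC genes, with exact permutation p-values of 0.286, 0.4 and 0.943 and differences of -0.15, 0.14 and -0.02 on the log2 scale.

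Among the salt-inducible kinases, SIK2 and SIK3 fell by similar amounts. SIK2 (ENSG00000170145.5; chromosome 11, 111602449 to 111730855, plus strand) had 51.1, 51.8, 53.5 and 50.4 CPM with the empty vector and 49.7, 42.0, 43.7 and 42.9 CPM with ADRA2A. Replicate 1 of the ADRA2A cells lay just below the empty-vector libraries and the other three far below. SIK2 fell by 13.9% (edgeR adjusted p = 0.0037), or -0.22 ± 0.06 (SE) on the log2 scale.

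SIK3 (ENSG00000160584.16; chromosome 11, 116843402 to 117098437, minus strand) had 39.4, 40.4, 39.7 and 40.3 CPM with the empty vector and 34.8, 33.1, 32.9 and 33.9 CPM with ADRA2A. Its replicates were the tightest of all members, with a coefficient of variation of 1.15% in the empty-vector cells and 2.64% with ADRA2A, and the groups were well apart. SIK3 fell by 15.7% (edgeR adjusted p = 0.00062), or -0.25 ± 0.05 (SE) on the log2 scale. The log2 ratio of SIK2 to SIK3 was 0.37 ± 0.04 with the empty vector and 0.40 ± 0.08 with ADRA2A (SD, n = 4; exact permutation p = 0.6).

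SIK1, the kinase whose transcript cyclic AMP induces, cannot be read from its own row. SIK1 (ENSG00000142178.8; chromosome 21, 43414483 to 43427131, minus strand) shared its counts with SIK1B (ENSG00000275993.2; chromosome 21, 6111131 to 6123778, plus strand). GENCODE release 44 types the second locus as an artifact and tags it an artifactual duplication whose real copy is SIK1. The canonical transcripts of both are 4747 bases long and differed at 7 bases, an identity of 99.9%, with 2 differences in the coding sequence and 5 in the 3′ UTR. Both coding differences lie in exon 13 of SIK1, as C1980T and C1984T, counted from the 5′ end of the transcript, with the SIK1 base first. The stretch that holds them, chr21:43417646-43417700 in the SIK1 copy, is shown from both transcripts with the differing bases in capitals.

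SIK1: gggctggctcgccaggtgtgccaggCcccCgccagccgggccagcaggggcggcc
SIK1B: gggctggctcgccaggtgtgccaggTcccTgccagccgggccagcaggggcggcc

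Between these sites a read fits both loci equally. Of all stretches of 75 bases in the SIK1 transcript, 91.5% also occur in SIK1B, and of those of 150 bases 83.2%, and the read length is not given in the sources used here. The SIK1 row held 81.5, 21.1, 58.9 and 56.0 estimated counts in the empty-vector libraries and 53.5, 49.6, 53.4 and 120 with ADRA2A, between 4.22% and 21.5% of the sum of both rows. The share moved from library to library within both groups, and ADRA2A replicate 4 had the highest. The SIK1 row alone had a log2 fold change of 0.39 with a wide 95% interval, from -0.24 to 1.01 (edgeR adjusted p = 0.319), which was -0.01 without that replicate.

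The sum of the 2 rows was steadier. It came to 32.0, 33.9, 35.4 and 32.4 CPM with the empty vector and 31.9, 31.1, 32.6 and 35.2 CPM with ADRA2A. The groups overlapped, and the log2 fold change of the sum was -0.03 (95% interval -0.16 to 0.09; edgeR adjusted p = 0.708), with the SIK1B row alone at -0.09 (edgeR adjusted p = 0.315). By the sum, SIK1 in the empty-vector cells stood close to CREB1 per kilobase of canonical transcript, at 7.04 against 7.06 CPM per kb. With ADRA2A the sum stood at 6.89 ± 0.378 and CREB1 at 6.30 ± 0.218 (SD, n = 4), and their libraries did not overlap. The SIK1 row alone would give 0.701 CPM per kb with the empty vector, next to PPARGC1A in the order. The log2 ratio of the SIK1 sum to SIK3 went from -0.26 ± 0.07 to -0.04 ± 0.08 without overlap (SD, n = 4), at the smallest exact permutation p this design allows, 0.0286, which is 0.257 when adjusted over the 9 ratios. The ratio of the sum to SIK2 differed by 0.18 (exact p = 0.114). A single ratio at that smallest p cannot pass 0.05 after adjustment over the 9, so the adjusted values cannot tell whether the members of a family moved apart.

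**Figure D3:**
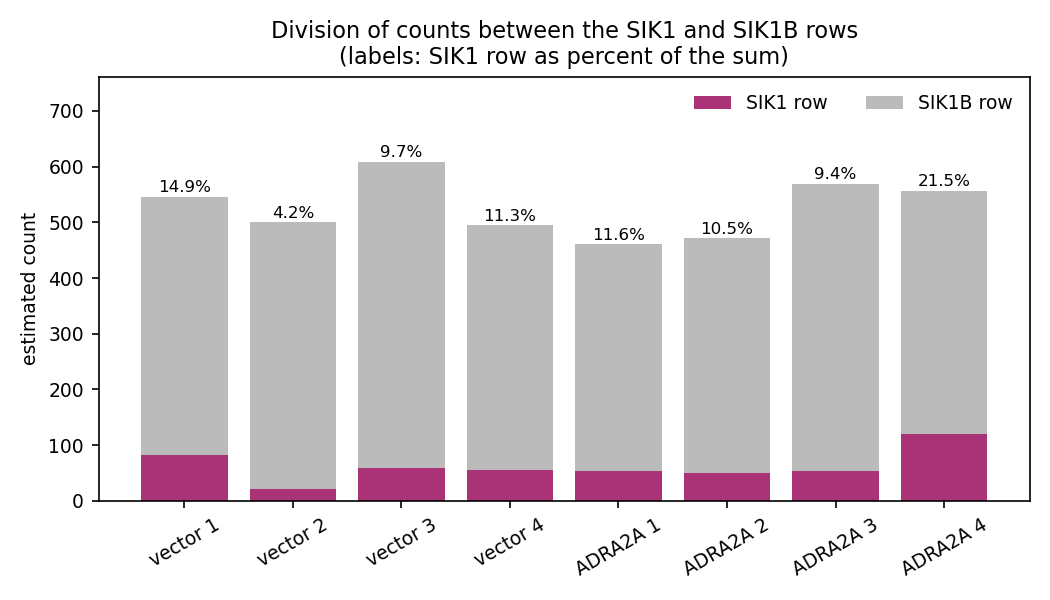
Estimated counts of the SIK1 and SIK1B rows stacked for each of the 8 libraries, with the SIK1 row as a percentage of the sum above each bar. The sum lies between 461 and 609 counts, while the share of the SIK1 row ranges from 4.22% to 21.5%.

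PPARGC1A showed the largest difference of the 10 genes. PPARGC1A (ENSG00000109819.9; chromosome 4, 23755041 to 23904089, minus strand) encodes PGC-1alpha, a coactivator of mitochondrial biogenesis and of gluconeogenesis that CREB and CRTC2 induce in liver. It had 54, 39, 44 and 48 counts in the empty-vector libraries and 15, 6, 15 and 13 counts with ADRA2A. As CPM these were 3.16, 2.65, 2.56 and 3.14 against 1.04, 0.396, 0.859 and 0.822. Even the highest ADRA2A library held under 16 counts, and every one lay far below the lowest empty-vector library.

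PPARGC1A fell by 72.7%, to 0.273 of the empty-vector level with a 95% interval from 0.183 to 0.406 (edgeR adjusted p = 1.54e-05), or -1.87 ± 0.27 (SE) on the log2 scale. It is a low transcript here, at the 11.1th percentile of the tested genes by mean abundance, and the ADRA2A counts limit the precision of the fold. The 3 tested genes whose log2 CPM followed PPARGC1A most closely over the 8 libraries were GIPC2 (Pearson r = 0.990), RBBP9 (0.989) and SKA3 (0.989). With 2 groups this likeness mostly reflects the difference between them, and their own log2 fold changes were -2.42, -0.37 and -0.38.

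The members were also set beside their surroundings on the chromosome. For each member the 10 tested genes on each side were taken by position in GENCODE. Their counts stand beside the 21.1% of all tested genes that were called lower and the 21.6% called higher. Around PPARGC1A 14 of 20 neighbours were lower with ADRA2A, 10 of them past the test, with a median log2 fold change of -0.16. PPARGC1A lay 1.72 below that median, and 0 of its 20 neighbours were lower than it. Its difference was thus far larger than that of its surroundings.

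For the smaller changes the surroundings were less distinct. SIK2 and SIK3 are on the same arm of chromosome 11, 5.11 megabases apart, with 26 tested genes between them. Of those 26, 15 were lower and 11 higher, with a median of -0.01. Past the test were 6 lower and 2 higher, against 21.1% and 21.6% of all tested genes. The 20 neighbours of SIK3 had a median of -0.02, but the 10 nearest had -0.17, with 6 called lower and 0 higher. The medians for SIK2 were -0.02 over 20 and -0.10 over 10 neighbours. For CREB1 the medians were -0.04 over 20 and -0.12 over 10, and 6 of the 20 neighbours were lower than CREB1. CRTC3 and CRTC1 lay 0.21 and 0.25 above the medians of their 20 neighbours, and 17 of 20 were lower than each of them. The part of shared chromosome shifts in the small changes was not tested.

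**Figure D4:**
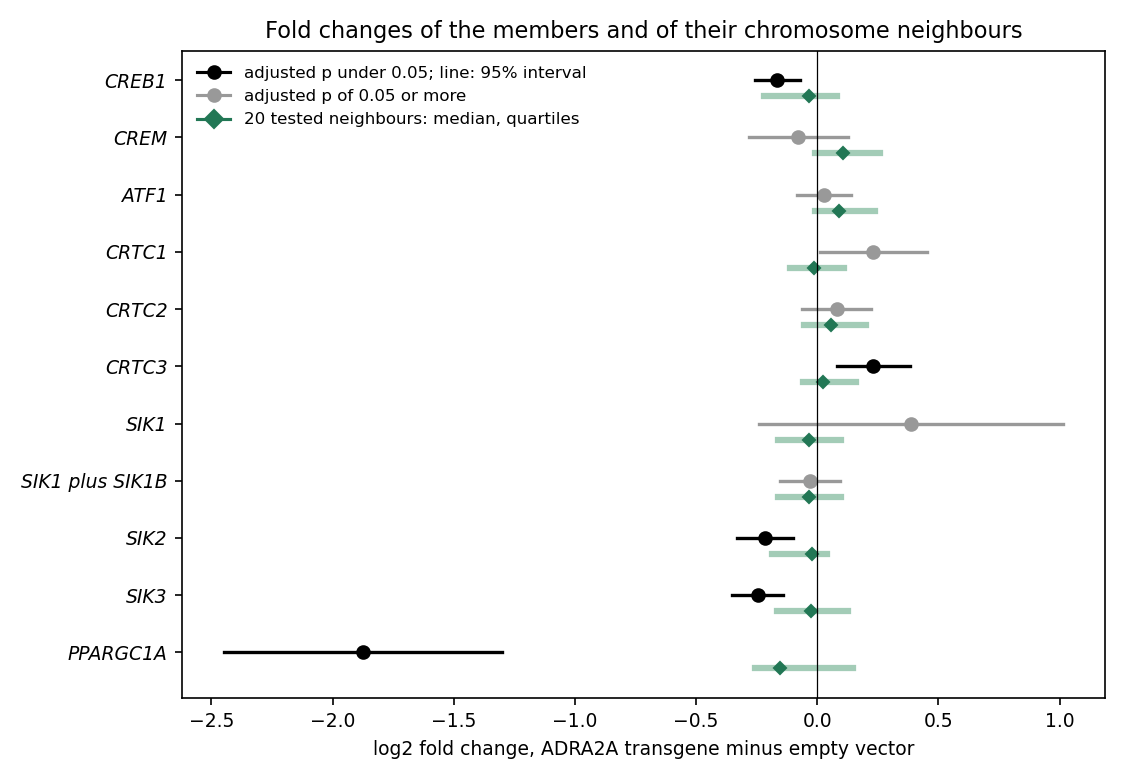
Log2 fold changes (ADRA2A transgene minus empty vector) of the members with 95% intervals, black where the adjusted p is under 0.05, above the median and quartiles of the 20 nearest tested genes of each in green. PPARGC1A at -1.87 lies far outside its neighbours, SIK2 and SIK3 lie below the lower quartile of theirs, and CREB1 lies within its quartiles.

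The genes around the members in the pathway were taken from 10 lists. Their counts stand beside the 42.7% of all tested genes that were called, 21.6% higher and 21.1% lower. Of 32 CRE target genes 21 were tested, 6 rose and 5 fell (52.4% called), with a median log2 fold change of 0.07. They went in opposite directions by large amounts. FOS, the immediate early factor, rose from 11.4 ± 0.912 to 41.3 ± 5.13 CPM (SD, n = 4 each; edgeR adjusted p = 2.23e-12). PTGS2, which makes prostaglandins, fell from 23.1 ± 1.22 to 8.5 ± 1.02 CPM (adjusted p = 1.33e-10). The growth factor gene AREG fell by 0.92 on the log2 scale, from 96.3 to 50.8 CPM. The phosphodiesterase gene PDE10A fell by 1.47, but at a low level, from 1.73 to 0.625 CPM, which limits the precision of its fold. PCK1 and G6PC1, liver targets of CREB and PGC-1alpha, were among the 11 not tested for low counts.

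Of 19 other CREB and ATF family genes 17 were tested, 8 rose and 3 fell (64.7% called, median 0.04). BATF fell by 0.81 and CREB5 by 0.55, while CREB3L1, a membrane-bound relative, rose by 0.64 and BATF2 by 0.43. Of the 7 cofactor genes OGT rose by 0.26, CREBBP, which encodes the coactivator CBP, rose by 0.24, and NONO fell by 0.14. EP300, which encodes p300, had -0.00 and COP1, a ubiquitin ligase for CRTC2, had -0.04, and neither passed.

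The list upstream of the kinases held the LKB1 complex, the activator of all salt-inducible kinases. Of its 5 genes STRADB rose by 0.21 and STK11, which encodes LKB1, had -0.11 without passing. Of 12 other kinases of the AMPK family 11 were tested, 2 rose and 3 fell (median -0.03). PRKAA1, the AMPK catalytic subunit alpha 1, rose by 0.37 and MARK1 by 0.52, whereas BRSK1 fell by 0.56 and MELK by 0.23.

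Downstream of the kinases, 14-3-3 genes bind phosphorylated CRTC and class IIa HDAC proteins. Of the 7 tested, 5 fell and 0 rose, with a median of -0.13, against 21.1% of all tested genes called lower. YWHAH fell from 201 ± 6.34 to 153 ± 2.21 CPM (SD, n = 4 each; edgeR adjusted p = 2.85e-08), and SFN, the epithelial 14-3-3 sigma, fell from 101 ± 3.91 to 80.9 ± 2.10 CPM (adjusted p = 4.98e-06). YWHAB fell by 0.25 and YWHAE by 0.13 on the log2 scale. In the phosphatase list 7 of 8 genes were tested: PPP3CA, a catalytic subunit of calcineurin, fell by 0.36 and PPP2CA rose by 0.10. Of the 8 HDAC and MEF2 genes HDAC9, a class IIa deacetylase, fell by 0.64, from 71.4 ± 3.08 to 45.9 ± 1.06 CPM (SD, n = 4 each; edgeR adjusted p = 1.53e-09), while MEF2A rose by 0.25 and HDAC7 by 0.17.

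The partners and targets of PGC-1alpha were mixed. Of 14 relatives and partners 13 were tested, with 3 higher and 1 lower (median 0.01). HNF4A rose by 0.94, NCOA1 by 0.47 and FOXO1 by 0.40, and PPARG fell by 0.68. PPARGC1B, the nearest relative of PPARGC1A, had 0.10 and the estrogen-related receptor gene ESRRA had 0.01, both short of the threshold. Of 17 target genes 14 were tested, 2 rose and 4 fell (median 0.05): SOD2 rose by 0.64 and CPT1A by 0.27, while CYCS fell by 0.37 and TFB1M by 0.34. TFAM, the mitochondrial transcription factor, had -0.04 and did not pass. Against the 42.7% of all tested genes that were called, the share called in these lists ran from 20% for the LKB1 complex to 71.4% for the 14-3-3 genes, in lists of 5 to 21 tested genes. The 14-3-3 genes are abundant, with empty-vector means from 101 (SFN) to 1487 CPM (YWHAZ). YWHAZ passed at -0.12 on the log2 scale, whereas YWHAQ and YWHAG, with empty-vector means of 510 and 334 CPM, did not pass. The part of abundance in the share called was not tested.

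**Figure D5:**
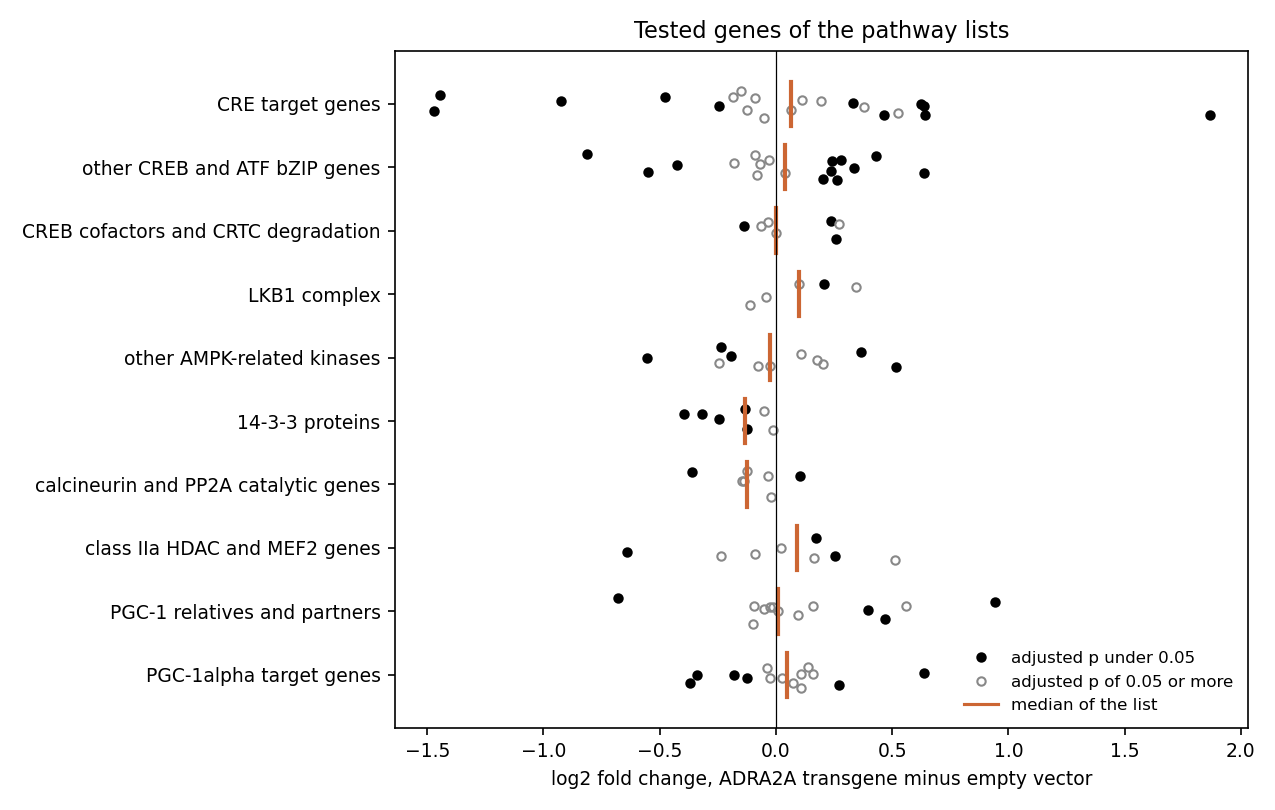
Log2 fold change of each tested gene of the 10 pathway lists, filled where the adjusted p is under 0.05, with the median of each list as a bar. The CRE targets run from -1.47 (PDE10A) to 1.87 (FOS), and the 14-3-3 genes all lie below 0.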

How the data were processed

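RNA was measured in 8 libraries, 4 per group, assigned by their titles. Values were deposited by the authors as estimated counts for each gene, which the column totals show to be unscaled. Per the submitters' processing notes, cutadapt, STAR, RSEM, DESeq2 and hg38 were used, without versions or order. The annotation release and strand setting are not given in the sources used here, so counts of overlapping genes may be shared. RSEM divides reads that fit several loci, which matters for SIK1 and SIK1B.

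Counts were rounded, filtered with filterByExpr, scaled by TMM and tested with edgeR 4.0.16 (glmQLFit, glmQLFTest; group as the single term), after the script was tested on simulated data. P-values were adjusted over 14785 genes by Benjamini-Hochberg (threshold 0.05), and standard errors are the log2 fold change over the square root of F. Positions and lengths came from GENCODE release 44, which matched 99.3% of identifiers, and promoters from RefSeq. The SIK1 sum was fitted in place of both rows. PER1 and G6PC1 were matched by identifier.

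Named genes were all members and ADRA2A, SIK1B, the 4 called genes with the largest absolute change per list, and the 3 genes most correlated with the called member of largest change. Other genes, and the ratios of members, were chosen after values were seen. Members and lists were chosen with earlier results of these data known. Alternatives were RLE and upper quartile factors, DESeq2 1.42.0, limma 3.58.1 voom, other filters, a block for the replicate number, and each library left out in turn.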

Additional observations from a re-analysis of the deposited data

Results flagged for a closer look

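Of 25 sets of 4 libraries (each member, SIK1B and the SIK1 sum in both groups, and ADRA2A in the ADRA2A cells), 1 held a library far from the rest. The SIK1 row of ADRA2A replicate 4 had 7.59 CPM, and its gap to the next library was 0.861 of the range, above the 95% critical value of Dixon's test. Chance flags about 1 in 20 sets. The summed SIK1 and SIK1B rows of that library, at 35.2 CPM, were not far from the others.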

How the results depend on the processing

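The count of 5 called members was 5 in 6 of the 8 other settings, 6 with no filter, where CRTC1 passed, and 4 with a mean of at least 50 counts, which removed PPARGC1A. It ranged from 4 to 6 when 1 library was left out. Genes called over the table were 6314, from 5823 to 6550 under other settings and 5703 to 6042 without 1 library. With the replicate number as a block, 5 members and 6400 genes were called, and no member's call changed. Same-numbered libraries deviated from their group means with correlations of -0.02, -0.04, 0.07 and -0.02, and not every library correlated best with its own number. No shared deviation by number was thus seen, which does not settle whether the numbers pair the libraries. CREB1, SIK2, SIK3 and PPARGC1A kept direction and call wherever they were tested. Without 1 library the log2 fold change of ATF1 ranged from -0.000297 (without empty-vector replicate 3) to 0.057, and that of the SIK1 row from -0.013 (without ADRA2A replicate 4) to 0.62. Summed with SIK1B it was -0.031. The sum stayed between -0.07 and 0.00 under the settings added after the data were seen. With 20 neighbours on each side the medians around CREB1, CRTC1 and SIK1 turned to 0.032, 0.045 and 0.0089; the cause was not tested. Among the members, low counts limit PPARGC1A and the SIK1 row most.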
